A study of Mus musculus with 30 samples.

Results

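The miR-29 family was followed through small RNA libraries of mouse cortex as every read that matched, in sense orientation and over its whole length, one of the 4 hairpins Mir29a, Mir29b-1, Mir29b-2 and Mir29c. These are 4 of the 2202 miRNA hairpins annotated in GENCODE vM21, and together they took 271109 reads of 433 distinct sequences. The libraries came from hemizygous 5xFAD mice (AD), labelled 5XFAD, and from their wild-type littermates (WT), of both sexes, on a C57BL/6J background at 6 months of age. 5xFAD mice carry human transgenes with familial Alzheimer mutations under Thy1 elements, which are active in neurons, so the model covers transgene-driven amyloid disease. The small RNAs of each group were read by traditional-seq (7 libraries each of WT and AD) and by PANDORA-seq (8 of each), in which the RNA is treated before ligation with T4 PNK, an enzyme that repairs RNA ends, and with AlkB, an enzyme that removes certain base methylations. The tissue was labelled cortex and described in the methods of the study as prefrontal.

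MicroRNAs are short RNAs cut from a hairpin precursor, first by Drosha and then by Dicer. One arm of the resulting duplex is loaded into Argonaute, and the seed, bases 2 to 8 of the loaded strand, finds matching sites in mRNA 3′ UTRs. The miR-29 family is known for its rise in maturing neurons and in glia, for its targets among collagen and DNA methyltransferase mRNAs, and for reports that it represses BACE1, the protease that makes the β-secretase cut in the amyloid precursor protein.

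The 3 mature 3p miRNAs are shown because they carry the family's function and differ at few bases. They are given as RefSeq lists them on GRCm38.p6, 5′ to 3′, with the seed in capitals.
miR-29a-3p: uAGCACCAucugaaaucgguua
miR-29b-3p: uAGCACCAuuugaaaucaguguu
miR-29c-3p: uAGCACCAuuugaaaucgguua
All 3 share the seed AGCACCA, and no other of the 1679 mouse mature miRNA names in that table has it. Counted from the 5′ end, miR-29c-3p departs from miR-29a-3p by the single substitution C10T, written in DNA letters. miR-29b-3p departs from miR-29a-3p by C10T, G18A, T21G and A22T, and is 1 base longer.

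The hairpins follow with both mature arms in capitals, since several results turn on where a read starts and ends within them.
Mir29a: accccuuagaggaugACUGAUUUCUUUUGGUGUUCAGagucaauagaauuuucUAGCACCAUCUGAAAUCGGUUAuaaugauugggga
Mir29b-1: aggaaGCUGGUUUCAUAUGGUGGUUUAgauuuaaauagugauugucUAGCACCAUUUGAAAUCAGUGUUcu
Mir29b-2: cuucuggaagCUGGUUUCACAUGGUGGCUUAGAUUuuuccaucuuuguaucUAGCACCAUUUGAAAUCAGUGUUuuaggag
Mir29c: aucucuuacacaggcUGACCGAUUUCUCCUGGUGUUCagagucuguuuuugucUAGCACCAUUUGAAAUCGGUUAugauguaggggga
Mir29a lies at chr6:31062660-31062747 and Mir29b-1 at chr6:31063023-31063093, both on the minus strand and 275 bases apart. Mir29b-2 lies at chr1:195037040-195037120 and Mir29c at chr1:195037547-195037634, both on the plus strand and 426 bases apart. The second pair sits within the noncoding gene A330023F24Rik, whose retained-intron transcript held nearly all of the member reads that another annotated transcript also contained. Those were 312 of the 433 distinct sequences and held 31340 of the 271109 reads (11.6%). The 2 copies of miR-29b give the same 3p miRNA, so its reads cannot be assigned to a copy, while their 5p arms can be told apart.

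Traditional-seq libraries held 9370669 to 17053412 reads, of which 35.9% to 50.3% matched a miRNA hairpin. PANDORA-seq libraries held 54926347 to 105876141 reads, of which 1.51% to 5.54% did. Levels are therefore given as reads per 1000000 of all reads in a library (RPM) and, between protocols, also per 1000000 miRNA reads. The neuronal miRNAs of the marker list (miR-124a, miR-128, miR-9, miR-138 and miR-218) summed to between 247857 and 600146 per 1000000 miRNA reads in traditional-seq and between 67849.9 and 201981 in PANDORA-seq, and 5 of 5 were found.

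In traditional-seq, the family was carried by the 3p arm of Mir29a. miR-29a-3p stood at 999 ± 690 RPM (SD, n = 14) and ranked 42 of 2098 detected miRNA features. In WT, its lowest, median and highest values over 7 libraries were 295, 977 and 1714 RPM, and in AD they were 340, 744 and 2720 RPM. The libraries of either genotype spread widely and the groups overlapped over nearly their whole range, with AD replicate 2 above all others.

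miR-29b-3p, the product of both Mir29b hairpins, was about 1 order of magnitude lower. Its lowest, median and highest values were 32.4, 71.2 and 206 RPM in WT and 33.1, 79.0 and 242 RPM in AD. It ranked 133 among the features. The WT and AD values again covered the same range.

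Mir29c gave mostly 5p reads in traditional-seq, unlike Mir29a and the Mir29b pair. Its 5p arm, miR-29c-5p, stood at 60.4 ± 39.8 RPM (SD, n = 14), and miR-29c-3p at 10.5 ± 7.73 RPM. The 3p arm made up 99.3% ± 0.358 of arm reads for Mir29a and 97.5% ± 1.77 for the Mir29b pair, but 14.6% ± 5.81 for Mir29c (SD, n = 14). In each of the 14 traditional-seq libraries the Mir29c share stayed between 8.33% and 26.7%.

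The 2 remaining 5p arms were rare. miR-29a-5p stood at 5.38 ± 3.70 RPM and miR-29b-5p at 2.07 ± 1.02 RPM (SD, n = 14). Between the copies of miR-29b, the 5p arm of Mir29b-2 averaged 18.4 reads a library and that of Mir29b-1 averaged 5.64 reads. The difference of these counts gives no measure of how the shared 3p miRNA divides between the copies.

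AD was compared with WT to ask whether miRNAs linked to Bace1 differed in the 5xFAD cortex. No miR-29 mature passed the threshold (adjusted p under 0.05 and fold over 2, edgeR quasi-likelihood test) in either protocol. In traditional-seq this was 0 of 7 features, beside 0.0% of all 510 features tested, and in PANDORA-seq 0 of 6, beside 0.143% of 700. At an unadjusted p under 0.05 the members counted 0 of 7 and 0 of 6, beside 9 of 510 and 84 of 700 features in all, and DESeq2 also called 0 in each protocol.

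In traditional-seq, the log2 fold change of AD over WT was 0.06 ± 0.43 for miR-29a-3p (SE, edgeR adjusted p = 0.9999) and -0.00 ± 0.42 for miR-29b-3p. For miR-29c it was -0.18 ± 0.45 on the 3p arm and -0.26 ± 0.35 on the 5p arm. Over the 7 miR-29 features the SE ran from 0.34 to 0.47, which sets the precision of these values. Without AD replicate 2, the highest library, the miR-29a-3p value became -0.46.

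In PANDORA-seq the spread was smaller and each of the 6 tested members had a positive log2 fold change, none past the threshold. It was 0.33 ± 0.19 for miR-29a-3p (SE, edgeR adjusted p = 0.504), 0.36 ± 0.35 for miR-29b-3p and 0.49 ± 0.27 for miR-29c-3p (edgeR adjusted p = 0.504). miR-29b-5p stood at 0.44 ± 0.24 and miR-29c-5p at 0.10 ± 0.34. The median over all 700 features was 0.05. miR-29a-5p, at 0 to 16 reads a library, did not pass the filter on low counts.

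On the RPM scale, the PANDORA-seq WT libraries had 28.9, 48.2 and 73.5 RPM of miR-29a-3p as lowest, median and highest, and the AD libraries 31.2, 59.0 and 115. The AD mean was 1.34 times the WT mean, and an exact two-sided permutation test gave p = 0.155 (adjusted p = 0.630 over 16 comparisons). The family total was 52.5 ± 17.5 RPM in WT and 70.1 ± 28.3 RPM in AD (SD, n = 8 each, exact permutation p = 0.158, adjusted p = 0.630). Reads longer than 40 nt count in the RPM denominator and were mostly a smaller share of AD than of WT PANDORA-seq libraries. Per 1000000 miRNA reads, the log2 ratio of the family total fell from 0.42 to 0.14. In traditional-seq the family total was 1204 ± 674 RPM in WT and 1156 ± 949 RPM in AD (SD, n = 7 each, exact permutation p = 0.918).

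**Figure D1:**
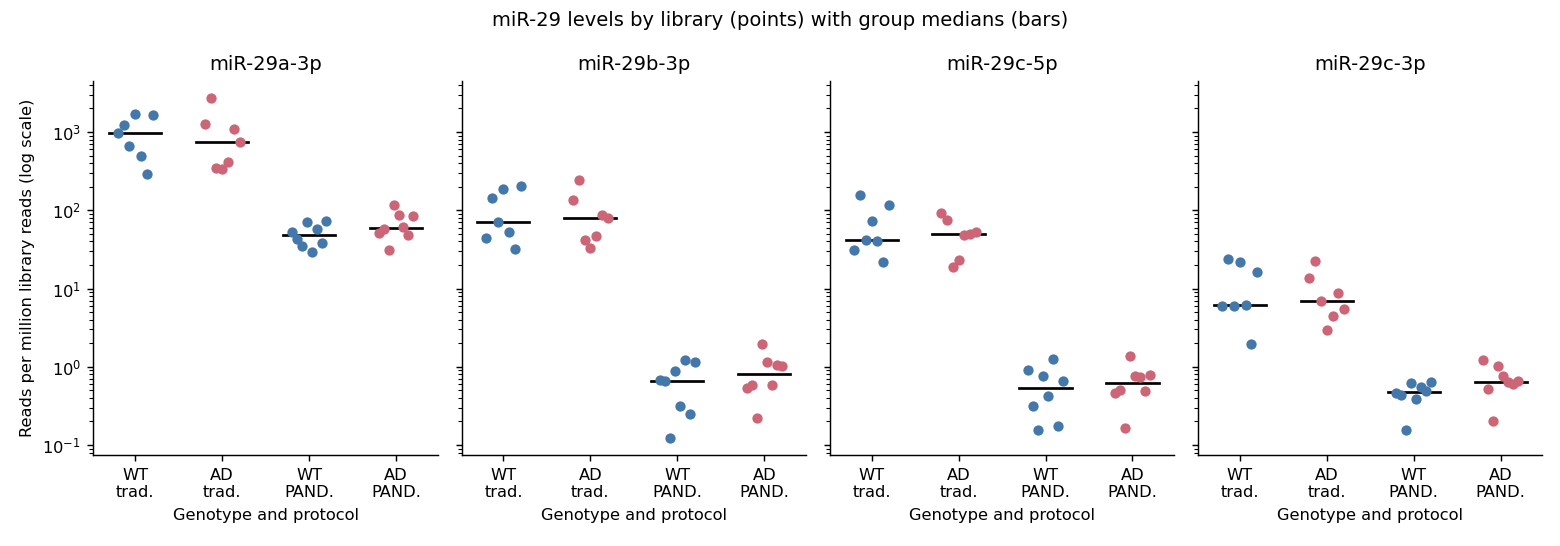
RPM on a log axis of miR-29a-3p, miR-29b-3p, miR-29c-5p and miR-29c-3p in each library (points) with group medians (bars), for WT and AD in traditional-seq (trad.) and PANDORA-seq (PAND.). Within a protocol the WT and AD points overlap for all 4, and every PANDORA-seq point lies below the traditional-seq points.

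The genotype effect was also compared between protocols. The interaction term of miR-29a-3p was 0.48 ± 0.47 on the log2 scale and that of miR-29c-3p, the furthest from 0, was 0.91 ± 0.56 (SE, edgeR adjusted p = 0.950 each). Of the 939 features tested, 0 were called (0.0%), and 53 had an unadjusted p under 0.05, none of them a member. The AD effect was negative or near 0 in traditional-seq and positive for the 6 features tested in PANDORA-seq, and this difference did not pass the test for any member.

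**Figure D2:**
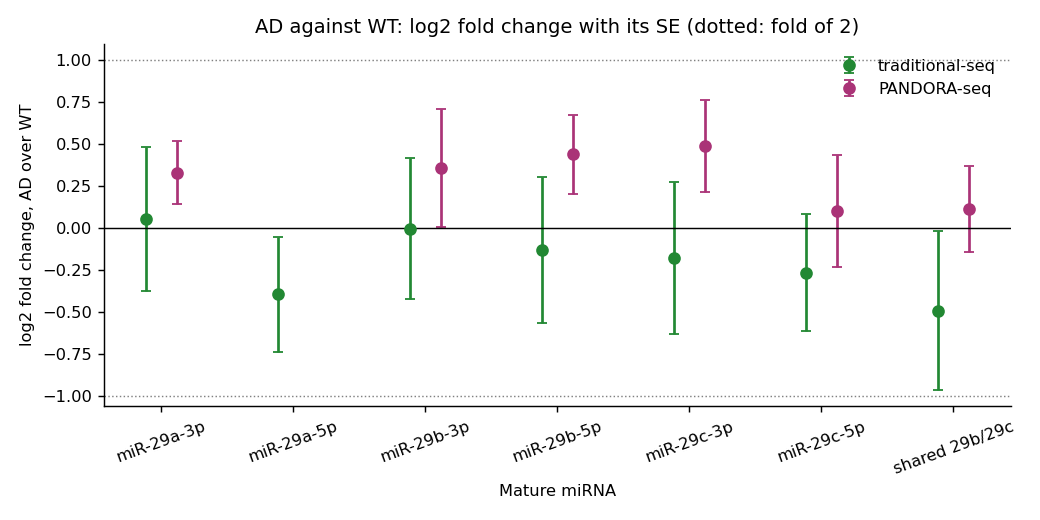
log2 fold change of AD over WT (y axis) for each miR-29 mature (x axis) in traditional-seq and PANDORA-seq. Bars show the SE, derived from the edgeR F statistic. Dotted lines mark a fold of 2. All points lie between the dotted lines, and no member passed the threshold.

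Single sequences gave the same picture. In PANDORA-seq 20 miR-29 sequences had enough reads to be tested and 0 were called, beside 1.13% of 3449 sequences in all (edgeR quasi-likelihood test). Of these 20, 19 had a positive log2 fold change, with a median of 0.31 beside 0.07 over all sequences, and 2 had an unadjusted p under 0.05, beside 381 of the 3449. In traditional-seq 34 were tested, 0 were called, 0 had an unadjusted p under 0.05 and 13 were positive, beside 0.0% of 1925 called and 20 with an unadjusted p under 0.05 in all. Sequences of 1 miRNA share their source and are not independent of each other.

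Between the protocols, the level of the family differed by more than its spread among all reads and did not pass the test among miRNA reads. The family total was 1180 ± 791 RPM in traditional-seq (SD, n = 14) and 61.3 ± 24.5 RPM in PANDORA-seq (n = 16), a ratio of 19.3 (permutation p = 1e-05, the floor set by 100000 shuffles). Per 1000000 miRNA reads it was 2684 ± 1577 and 2215 ± 671, and the difference of the mean log2 levels, PANDORA-seq less traditional-seq, shrank from -4.07 to -0.11 (permutation p = 0.655).

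The members did not move alike. Per 1000000 miRNA reads, miR-29a-3p stood at 2265 ± 1361 in traditional-seq and 2117 ± 649 in PANDORA-seq, and miR-29c-3p at 24.3 ± 17.4 and 20.5 ± 5.98, with the protocols overlapping for both. miR-29b-3p went from 230 ± 145 to 26.3 ± 12, and miR-29c-5p from 143 ± 96.6 to 21.4 ± 9.88 (SD, n = 14 and 16). Even the highest PANDORA-seq library, at 47.3, lay below the lowest traditional-seq library, at 87.5, for miR-29b-3p. The rarer miR-29b-5p went the other way, from 4.92 ± 2.50 to 15.0 ± 3.92.

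In the fit across all miRNAs, 5 of the 7 members were called lower in PANDORA-seq, beside 25.9% of the 939 features called lower and 54.8% called higher. The log2 fold changes of the 5 were -1.50 ± 0.24 for miR-29a-3p, -3.42 ± 0.34 for miR-29a-5p, -4.47 ± 0.32 for miR-29b-3p, -1.57 ± 0.29 for miR-29c-3p and -4.04 ± 0.30 for miR-29c-5p (SE). The values of miR-29a-3p and miR-29c-3p depend on the scaling, since per 1000000 miRNA reads, without the TMM factors of this fit, their protocols overlapped. The edgeR adjusted p of miR-29b-3p was 6.2e-15. The median over all features was 1.62 in this fit, so each of the 5 lay far below it, and only 4.05% of features lay below miR-29b-3p. miR-29b-5p, at 0.27 ± 0.26, and the reads shared by miR-29b-3p and miR-29c-3p, at 0.12 ± 0.29, were not called. With all reads of a library as its size, these last 2 were called lower as well, at -2.31 and -2.46.

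**Figure D3:**
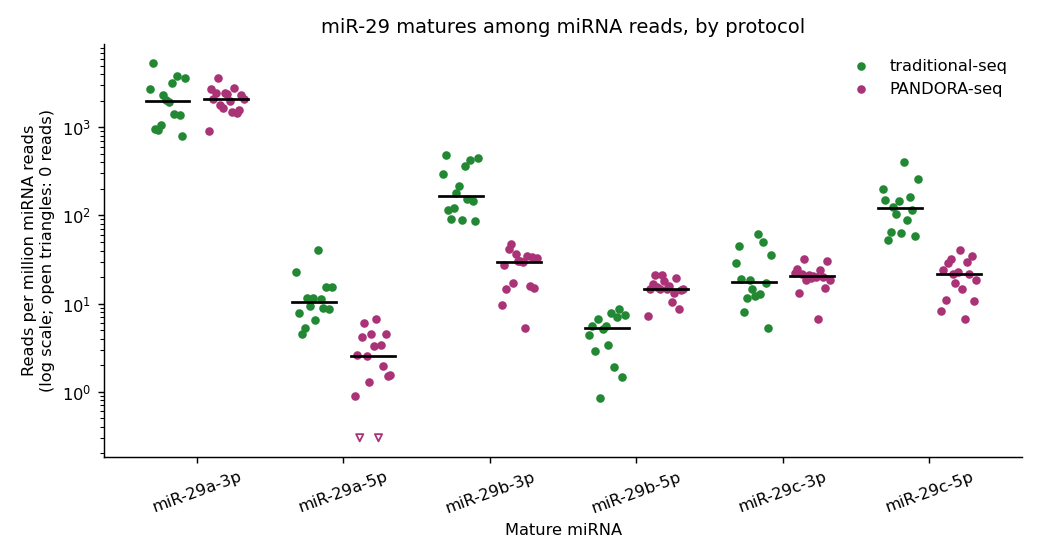
Reads per 1000000 miRNA reads (log axis) of 6 miR-29 matures in each library of traditional-seq and PANDORA-seq (points) with medians (bars); open triangles mark libraries with 0 reads. The protocols overlap for miR-29a-3p and miR-29c-3p and are apart for miR-29b-3p, where every PANDORA-seq library lies at or below 47.3.

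Shares within the family do not depend on library size, and they gave the composition directly. miR-29a-3p took 84.0% ± 3.50 of family reads in traditional-seq and 95.5% ± 1.1 in PANDORA-seq. miR-29b-3p took 8.52% ± 1.51 and 1.18% ± 0.461, and miR-29c-5p 5.62% ± 2.16 and 0.979% ± 0.425 (SD, n = 14 and 16; each permutation p = 1e-05, adjusted p = 1.3e-05 over 26 shares). The share of miR-29c-3p, 0.891% ± 0.336 and 0.981% ± 0.411, did not pass the test (adjusted p = 0.544, permutation test). Limited to reads of 18 to 26 nt it was 0.873% ± 0.306 and 0.510% ± 0.207, lower in PANDORA-seq (adjusted p = 0.00032 over 23 shares, permutation test).

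Arm shares moved too. Of Mir29c arm reads, 14.6% ± 5.81 were 3p in traditional-seq and 50.5% ± 11.5 in PANDORA-seq. Of Mir29b arm reads, 97.5% ± 1.77 and 60.8% ± 12.2 were 3p (SD, n = 14 and 16; adjusted p = 1.3e-05 each, permutation test). PANDORA-seq libraries held 7 to 151 reads of miR-29b-3p and 9 to 78 of miR-29c-3p, so their shares in a single library are imprecise.

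Read length and the 3′ end set the protocols apart most sharply. Of miR-29a-3p reads, 50.3% ± 4.99 were 22 nt long in traditional-seq and 2.27% ± 0.375 in PANDORA-seq. Of miR-29b-3p reads, 65.8% ± 9.86 were 23 nt long in traditional-seq and 0.271% ± 0.534 in PANDORA-seq (adjusted p = 1.3e-05 each, permutation test). The commonest reads show where the bases were missing. They are printed as deposited, in DNA letters, with bases 2 to 8 of the read in capitals.
miR-29a-3p, traditional-seq, most common: cTAGCACCatctgaaatcggtt
miR-29a-3p, traditional-seq, next: tAGCACCAtctgaaatcggtt
miR-29a-3p, PANDORA-seq, most common: cTAGCACCatctgaaatcggt
miR-29a-3p, PANDORA-seq, next: tAGCACCAtctgaaatcggt
miR-29a-3p, PANDORA-seq, rank 3: tAGCACCAtctgaaat
miR-29b-3p, traditional-seq, most common: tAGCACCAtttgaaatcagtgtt
miR-29b-3p, PANDORA-seq, most common: tAGCACCAtttgaaatcagtgt
The first of these made up 45.8% of miR-29a-3p reads in traditional-seq, and its counterpart 1 base shorter at the 3′ end made up 31.4% in PANDORA-seq. The 23-nt miR-29b-3p read made up 68.3% in traditional-seq, and the 22-nt read 25.0% in PANDORA-seq.

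The missing 3′ base was not particular to the family. Among 224 miRNA features with at least 1000 reads in each protocol, the commonest PANDORA-seq read was the commonest traditional-seq read less its last base in 159 (71.0%), was the same read in 25 and was 1 base longer in 7. Reads below 18 nt took 3.91% ± 1.69 of miR-29a-3p in traditional-seq and 22.9% ± 5.14 in PANDORA-seq, among them the 16-nt read above, with 9838 reads.

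**Figure D4:**
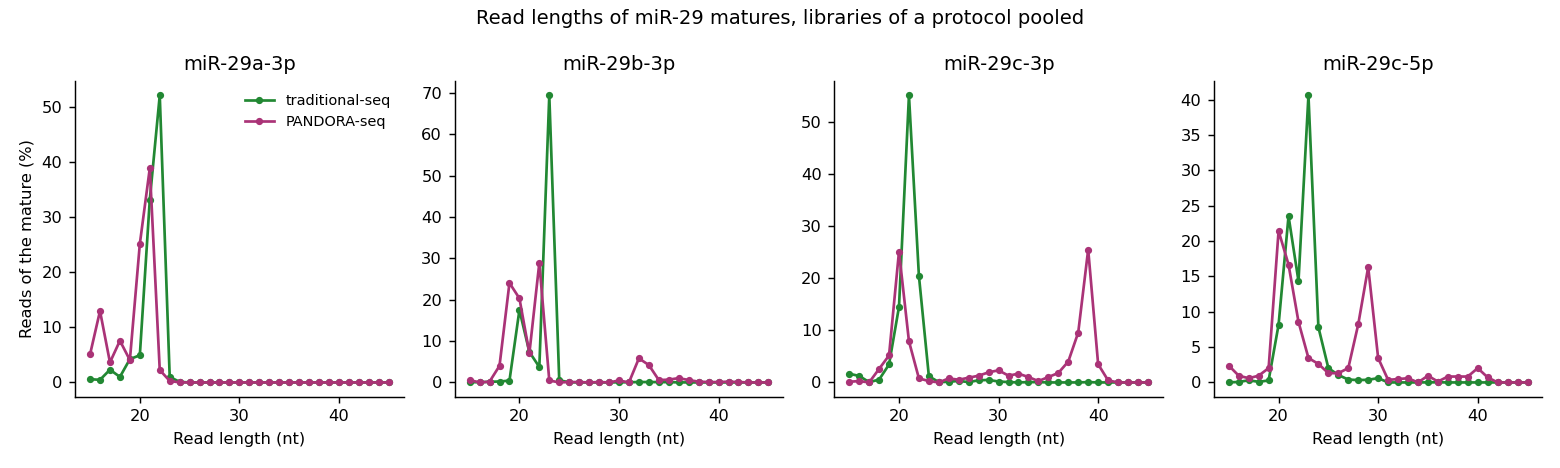
Share of the reads of miR-29a-3p, miR-29b-3p, miR-29c-3p and miR-29c-5p (y axis, %) at each read length (x axis, nt), with the libraries of a protocol pooled. Between 19 and 23 nt, the highest PANDORA-seq point lies 1 nt to the left of the traditional-seq one for the 3p miRNAs, and miR-29c-3p has a further PANDORA-seq peak at 39 nt.

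A start 1 base upstream of the reference mature moves the seed by 1 base, and miR-29a-3p had many such reads. They took 47.2% ± 5.52 of its reads in traditional-seq and 37.4% ± 6.46 in PANDORA-seq (SD, n = 14 and 16), with 39.1% to 57.8% in single traditional-seq libraries. The reads that began at the reference 5′ end took 52.7% ± 5.50 and 62.4% ± 6.49. Limited to 18 to 26 nt, the upstream shares were 49.0% ± 5.90 and 45.8% ± 6.77, and the difference between protocols went from an adjusted p of 0.00024 to one of 0.207 (permutation tests). Among 239 mature miRNAs with at least 1000 traditional-seq reads, the median share that began 1 base upstream was 0%, and 6 had a higher share than miR-29a-3p. In PANDORA-seq 9 of 232 did.

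The other 3p members started mostly at the reference in traditional-seq. Reads from the reference 5′ end were 89.7% ± 2.92 of miR-29b-3p there and 62.2% ± 8.79 in PANDORA-seq, and 87.2% ± 5.99 and 37.4% ± 17.8 of miR-29c-3p, the last of these 81.3% ± 18.3 at 18 to 26 nt. For miR-29b-3p, reads from 1 base upstream were 9.21% ± 2.89 in traditional-seq and 20.2% ± 6.63 in PANDORA-seq. For miR-29c-3p they were 6.10% ± 2.83 and 3.09% ± 3.15, although the 2 bases before the reference start are the same in all 4 hairpins. At 18 to 26 nt the miR-29c-3p shares were 6.41% ± 2.89 and 9.49% ± 11.9 (adjusted p = 0.383, permutation test). The commonest miR-29c-5p read of traditional-seq began 2 bases inside its reference, and 28.8% ± 7.33 of miR-29c-5p reads began at the reference start. In PANDORA-seq the commonest began at the reference start, as did 57.1% ± 9.38 of its reads (adjusted p = 1.3e-05, permutation test).

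The upstream share of miR-29a-3p differed between genotypes only in unadjusted tests. In PANDORA-seq it ranged from 32.8% to 55.3% in WT (mean 40.6% ± 7.35) and from 30.4% to 41.5% in AD (mean 34.2% ± 3.50; exact permutation p = 0.0353, n = 8 each). Adjusted over 52 shares, p was 0.760. The traditional-seq means were 47.6% ± 6.72 and 46.7% ± 4.51 (exact permutation p = 0.786, n = 7 each). Of all 52 tests of isoform shares between genotypes, 0 had an adjusted p under 0.05.

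**Figure D5:**
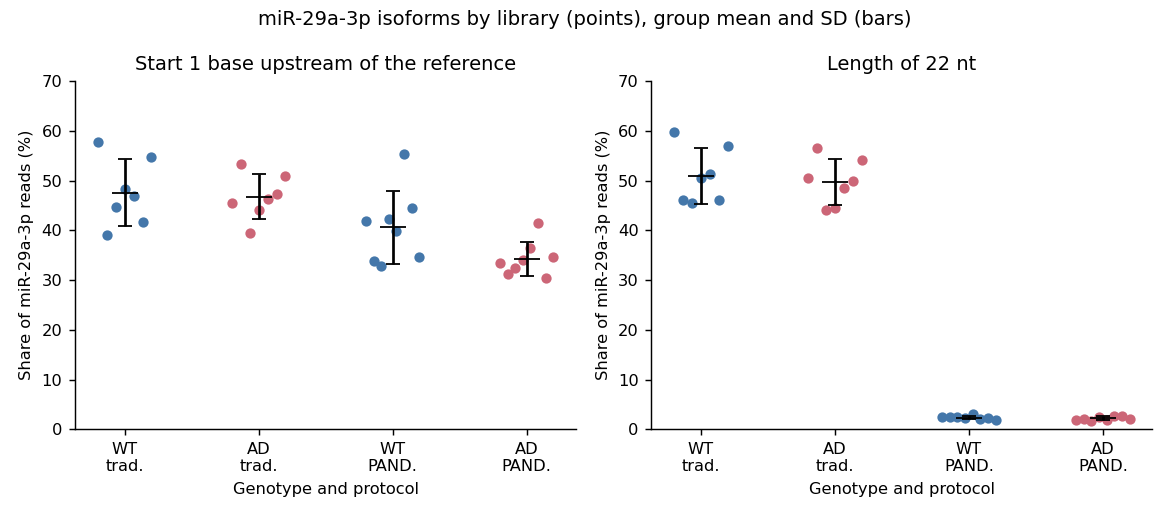
Share of miR-29a-3p reads (y axis, %) that began 1 base upstream of the reference (left) or were 22 nt long (right) in each library (points), with group means and SD. The 22-nt share lies at or above 44.1% in every traditional-seq library and at or below 3.07% in every PANDORA-seq library, while the upstream shares of the protocols overlap.

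Bases 2 to 8 of the 2 starts of miR-29a-3p matched different stretches of the Bace1 mRNA, but the stretches were not exclusive to 1 start. In the 4104-base 3′ UTR of the Bace1 transcript with the longest 3′ UTR (GENCODE vM21, GRCm38), the match to bases 2 to 8 of the reference mature, TGGTGCT on the mRNA strand, occurred 1 time, and so did GGTGCTA, the match to bases 2 to 8 of the read from 1 base upstream. Only the mRNA strand was searched, and the motifs share GGTGCT. Each match is shown in capitals with the bases next to it.
Bace1, reference seed, chr9:45862018-45862042, plus strand: tccttgccctcgcacTGGTGCTgct
Bace1, seed from 1 base upstream, chr9:45861280-45861304, plus strand: gttcactccaaccaaGGTGCTAaaa
Of 20605 genes with an annotated 3′ UTR, 13.3% held TGGTGCT and 6.70% held GGTGCTA. Among the 1571 with a 3′ UTR of 3283 to 5130 bases, near the Bace1 length, the shares were 34.8% and 16.5%. A match is a run of letters and no measure of binding, and no Bace1 RNA was measured in these libraries.

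Long reads that kept part of the loop were found in PANDORA-seq, with the highest listed share among Mir29c reads. Reads of 28 nt or longer made up 45.3% of Mir29c reads (730 reads), 22% of those assigned to Mir29b-2, 8.41% of those listed under Mir29b-1 and 0.0204% of Mir29a reads. In traditional-seq the shares were 1.34% for Mir29c (152 reads), 11.5% for Mir29b-2 (40 reads), 0.190% for Mir29b-1 and 0.00248% for Mir29a. All 3p reads that both copies of Mir29b give are listed under Mir29b-1 and left out of the Mir29b-2 reads. So are the reads that fit Mir29c as well, 450 in PANDORA-seq and 306 in traditional-seq, which are therefore left out of the Mir29c reads. The shares of Mir29c and of both copies of Mir29b rest on this listing, so the order of these hairpins cannot be told from them. The most common long reads of PANDORA-seq follow, with the annotated mature bases in capitals.
Mir29c, bases 38 to 76: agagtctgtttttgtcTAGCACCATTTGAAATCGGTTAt
Mir29c, bases 16 to 44: TGACCGATTTCTCCTGGTGTTCagagtct
Mir29c, bases 39 to 76: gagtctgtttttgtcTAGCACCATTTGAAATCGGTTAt
Mir29b-1, bases 37 to 68: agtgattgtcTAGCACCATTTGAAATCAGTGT
The first runs from the base after miR-29c-5p through the loop to 1 base past miR-29c-3p. It had 192 reads in 14 of 16 libraries and was the commonest single sequence counted as miR-29c-3p there. The second, with 112 reads in 13 libraries, holds the 5p arm and 7 loop bases. The third, with 63 reads in 14 libraries, is the first less its 5′ base, and the Mir29b-1 read had 51 reads in 11 libraries.

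Over the whole family, reads of 28 nt or longer took 0.188% ± 0.182 in traditional-seq and 1.24% ± 0.517 in PANDORA-seq (SD, n = 14 and 16; adjusted p = 1.3e-05, permutation test). Over all miRNA hairpins the share was 0.116% ± 0.0739 and 5.88% ± 1.67. The longest read was 42 nt in each traditional-seq library and 45 nt in each PANDORA-seq library. All shares of reads of 28 nt or longer, by hairpin too, therefore span unlike lengths in the protocols, and the part of this in the difference was not tested. These shares pool all hairpins of a library, and how many hairpins rose was not counted. The family lay below the pooled share in PANDORA-seq. WT and AD did not differ beyond their spread in this share, at 1.23% ± 0.482 and 1.24% ± 0.584 in PANDORA-seq (exact permutation p = 0.980, n = 8 each).

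Short miR-29c-3p reads depart from miR-29a-3p reads by 1 base, so other departures by 1 base were counted beside them. The 21-nt read of miR-29c-3p equals that of miR-29a-3p with C10T, counted from the read's 5′ end, and had 922 reads in traditional-seq, 1.79% of the 51425 reads of the unaltered sequence. The substitution C7T in the same read, which no miR-29 hairpin encodes, had 1215 reads, 2.36%. In the 20-nt read, C10T reached 3.45% and C7T 3.36%. In the 22-nt read from 1 base upstream the same bases are C11T, with 106 reads or 0.144% of the 73431 unaltered reads, and C8T, with 434 reads or 0.591%. Both were thus lower at the upstream start than at the reference start. What share of the short miR-29c-3p reads were substituted miR-29a-3p reads was not tested. The long PANDORA-seq reads carry Mir29c loop bases.

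Bases at the 3′ end that departed from the hairpin followed the protocol as well. In traditional-seq the commonest was a last T read as C: T22C in the commonest miR-29a-3p read had 8419 reads, 11.5% of the unaltered read. Over 142 miRNA features whose commonest read ended in T, the median of this share was 12.7%, and 99 exceeded miR-29a-3p, so it was not particular to the member. Reads with 1 such C made up 7.72% ± 3.0 of miR-29a-3p in traditional-seq and 0.240% ± 0.109 in PANDORA-seq (SD, n = 14 and 16; adjusted p = 1.3e-05, permutation test).

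In PANDORA-seq the commonest departure, written as a substitution, lay at the next-to-last base. In the 20-nt read from the reference start, G19T had 2830 reads, 14.9% of the unaltered read, and 6.07% to 28.8% in single libraries. The same base in the 21-nt read from 1 base upstream is G20T, and it reached 2.28% there. The 2 starts of miR-29a-3p thus differed in this variant within the same libraries.

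Levels of the members moved together over libraries. Across the 14 traditional-seq libraries, log2 CPM of miR-29a-3p and miR-29b-3p had Pearson's r = 0.897 (permutation p = 1e-05) and Spearman's rho = 0.890 (permutation p = 4e-05), and r = 0.819 without the 2 libraries furthest from the median. For miR-29b-3p and miR-29c-5p r was 0.782, and for miR-29a-3p and miR-29c-5p it was 0.670. Across the 16 PANDORA-seq libraries these were 0.688, 0.817 and 0.607. All 6 had an adjusted p under 0.05 over 8 relations, with permutation p between 1e-05 and 0.0132. Levels of 1 library share its scaling, and the members of a pair were not independent in that respect. The correlations among all miRNA features are not given here. In traditional-seq miR-495-3p, outside the family, followed the summed 3p members at r = 0.982, so the values do not show a trait particular to the family.

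The other 2 relations joined the protocols through 14 codes that appear in the names of the files of both, 7 for each genotype. Over these, miR-29a-3p had r = -0.220 and rho = -0.288 between protocols (permutation p = 0.446 and 0.319), and miR-29b-3p had r = -0.397 and rho = -0.411 (permutation p = 0.161 and 0.147). A library high in one protocol was not detectably high in the other. No label says that a shared code marks the same mouse.

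By description only, the miRNAs whose log2 CPM was most like the summed 3p members were, in traditional-seq, miR-495-3p (r = 0.982), miR-376b-5p (r = 0.965) and miR-186-5p (r = 0.954) among 179 features over 14 libraries. In PANDORA-seq they were miR-340-5p (r = 0.854), miR-434-3p (r = 0.786) and miR-342-3p (r = 0.759) among 249 features over 16 libraries. The 2 sets had no feature in common.

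Other miRNAs reported to target Bace1 (miR-107, miR-195a, miR-298, miR-328, miR-339, miR-186 and miR-124a) were counted beside the family. All 7 were found by name. Every tested arm of a name was counted, and arms were not matched to those of the reports. miR-195a-5p was tested in traditional-seq only, so miR-195a enters PANDORA-seq by its 3p arm alone. In traditional-seq 0 of 11 tested features were called and in PANDORA-seq 0 of 9 (edgeR), beside 0.0% of 510 and 0.143% of 700 features in all. At an unadjusted p under 0.05 they counted 0 and 4, beside 9 of the 510 and 84 of the 700. The 4 were miR-124a-3p, miR-195a-3p, miR-339-3p and miR-339-5p, with log2 fold changes of AD over WT of 0.73 ± 0.25, 1.39 ± 0.59, 0.70 ± 0.28 and 0.59 ± 0.27 (SE; edgeR adjusted p from 0.329 to 0.412). In traditional-seq the same 4 stood at -0.25, 0.18, -0.14 and 0.30.

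The neuronal miRNAs had medians of 327284 in WT and 310422 in AD per 1000000 miRNA reads in traditional-seq and of 172525 and 146471 in PANDORA-seq. Of their 9 features 0 were called in either protocol (edgeR), and at an unadjusted p under 0.05 they counted 0 in traditional-seq and 3 in PANDORA-seq. Counts at that p, for this list and those below, take both directions together and do not give the direction of a list. Among the 3, miR-124a-3p was higher in AD (log2 fold change 0.73 ± 0.25, SE), unlike the summed medians, and the direction of the rest is not given here. Marker miRNAs of other cell types also gave 0 calls between genotypes, against the same 9 of 510 and 84 of 700 features in all with an unadjusted p under 0.05. At that p, traditional-seq had 2 of 4 features of the microglial and immune list, counted without miR-146a, and 1 of 4 of the oligodendrocyte list. PANDORA-seq had 2 of 5 of the red blood cell list and 1 of 3 of the muscle list, and the other lists had 0. The microglial and immune list was matched for 4 of 5 names and summed to 67.5 to 279 per 1000000 miRNA reads in traditional-seq, with WT and AD overlapping. The unmatched name was miR-146a, which the annotation lists as miR-146, with 23724 5p reads in traditional-seq and 13514 in PANDORA-seq. Those reads are not in the sums or counts of this list, which are therefore too low as levels of the whole list. The oligodendrocyte miRNAs (miR-219a and miR-338) had medians of 1410 in WT and 1837 in AD. miR-122 of liver reached 2088 in 1 AD traditional-seq library against a group median of 178, and the muscle miRNAs reached 21889 in AD against a median of 1077. Vessel miRNAs were higher, with medians of 17727 in WT and 18348 in AD, and red blood cell miRNAs had medians of 476 and 299. In PANDORA-seq the medians of WT and AD were 418 and 387 for the immune list without miR-146a, 2246 and 2106 for oligodendrocytes and 501 and 550 for red blood cells. They were 3306 and 3034 for vessels, 3041 and 2629 for liver and 154 and 296 for muscle. The highest AD library reached 14450 for vessels and 3470 for muscle, and the highest WT library 6567 and 340. The part of these cells in the miR-29 levels was not tested, and in tissue RNA fewer cells of a type cannot be told from less RNA per cell.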

How the data were processed

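Small RNA of 15 to 50 nt was sequenced in 30 cortex libraries. For each library the authors deposited the count of every distinct read after adapter removal, with its length and with no annotation or normalization. The study annotated reads with SPORTS at its defaults except for 1 allowed mismatch, and that annotation is not part of the counts used here. The submitters' notes name the build mm39, which was not needed since the counts carry no positions. All coordinates are GRCm38.

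Reads were matched exactly, in sense, to 2202 GENCODE vM21 hairpins and summed by mature name and arm (the side of the hairpin's centre that holds the read's midpoint); reads that fit several names were kept under joined labels. Counts were fitted with edgeR 4.0.16 (quasi-likelihood test, TMM, filterByExpr, R 4.3.3), with Benjamini-Hochberg adjustment over all features, and DESeq2 1.42.0 as an alternative. RPM and shares were compared by exact permutation tests between genotypes and by 100000 shuffles between protocols (scipy 1.17.1, numpy 2.4.6). The SE of an edgeR log2 fold change was its absolute value divided by the square root of the test's F statistic. Correlations used log2(CPM + 0.5). The fits were tested on simulated data. Groups came from the labels, and each library is a replicate from its own mouse within a protocol, per the study's text. Reads carry no molecular identifiers.

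The text names all miR-29 matures, the commonest reads of those with enough reads, the 3 miRNAs of mean CPM of at least 100 most correlated with the summed 3p members, and Bace1-reported miRNAs. The members, lists and tests were chosen with earlier results of these data known; the shares of upstream starts, of reads of 28 nt or longer and of single untemplated bases, the substitutions and the Bace1 matches were added after the reads had been seen.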

Additional observations from a re-analysis of the deposited data

Results flagged for a closer look

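Within each group of 7 or 8 libraries, the highest or lowest value was compared with its nearest neighbour, relative to the range of the group, for 140 combinations of measure and group. In 16 of them that library stood apart by Dixon's test. Its chance rate of about 1 in 20 holds for independent, normally distributed values. Many of these measures share reads or rest on few, so the 16 give no measure of an excess over chance. No cause was tested.

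AD replicate 2 of traditional-seq was highest for miR-29a-3p, at 2720 RPM with the next library at 1274, and for the family total, at 3068 with the next at 1532. miR-29a-5p was highest in AD replicate 1 of traditional-seq, at 10.8 RPM, and in WT replicate 2, at 15.6 RPM.

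AD replicate 1 of PANDORA-seq was highest in 3 shares. Its 3p share of Mir29c arm reads was 72.8%, its share of family reads of 28 nt or longer was 2.54%, and its miR-29c-3p share of family reads was 2.30%. In traditional-seq the miR-29c-3p share was highest in AD replicate 3, at 1.66%, and the upstream share of miR-29c-3p was lowest in WT replicate 6, at 0%, in a library with few such reads.

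For miR-29b, the 3p share of arm reads was lowest in AD replicate 4 of traditional-seq, at 93.1%, and the miR-29b-3p share of family reads was lowest in WT replicate 1, at 4.14%. The miR-29b-5p share of family reads was highest in AD replicate 4 of traditional-seq (0.605%), in WT replicate 5 of traditional-seq (0.516%) and in WT replicate 5 of PANDORA-seq (1.24%). The untemplated share of miR-29b-3p was lowest in WT replicate 3 of PANDORA-seq, at 0%, and the 21-nt share of miR-29a-3p was highest in WT replicate 6 of PANDORA-seq, at 55.5%.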

How the results depend on the processing

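No miR-29 mature, sequence or isoform share was called between genotypes under any alternative run, and the 5 members called lower in PANDORA-seq were called under all of them. No fit scaled by miRNA totals without TMM was run, and on that scale the protocols overlapped for miR-29a-3p (means 2265 and 2117 per 1000000) and miR-29c-3p (24.3 and 20.5). Uncalled log2 fold changes near 0 changed sign: for miR-29a-3p in traditional-seq to -0.0084 with DESeq2 or its size factors and -0.021 with all reads as library size, for miR-29b-3p to 0.0027 with the loose filter, and for miR-29c-5p in PANDORA-seq to -0.17 at 18 to 26 nt. Between protocols, all reads as library size turned miR-29b-5p to -2.31 and the reads shared by miR-29b-3p and miR-29c-3p to -2.46, and allowing 1 mismatch turned the latter to -0.24. Limited to 18 to 26 nt, the AD against WT differences turned for miR-29a-3p among family reads in PANDORA-seq (-0.127 percentage points), for miR-29b-3p at the reference 5′ end in PANDORA-seq (-1.95) and for miR-29c-3p there in traditional-seq (0.273). Between protocols, the miR-29c-3p share turned to -0.363 and then passed the test, and its upstream share turned to 3.08 and no longer passed. For miR-29a-3p the differences in the upstream share (-3.21), the reference 5′ end (3.13) and untemplated tails (-2.01) no longer passed either. The protocol difference of the family total fell to -0.11 per 1000000 miRNA reads.

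Leaving out 1 library gave log2 fold changes of -0.46 to 0.18 for miR-29a-3p, -0.45 to 0.21 for miR-29b-3p -0.34 to 0.050 for miR-29b-5p, -0.59 to -0.011 for miR-29c-3p, -0.43 to -0.066 for miR-29c-5p and -0.66 to -0.16 for miR-29a-5p in traditional-seq, and 0.23 to 0.36 for miR-29a-3p, 0.16 to 0.48 for miR-29b-3p, 0.25 to 0.55 for miR-29c-3p, -0.072 to 0.28 for miR-29c-5p and -0.00091 to 0.20 for the shared reads in PANDORA-seq. Between protocols it gave -0.20 to 0.32 for miR-29b-5p and -0.30 to 0.22 for the shared reads. The family total ranged from -0.52 to 0.12 in traditional-seq and from 0.26 to 0.52 in PANDORA-seq. The lowest traditional-seq values of miR-29a-3p, miR-29b-3p and miR-29c-3p came without AD replicate 2, and the lowest PANDORA-seq values of miR-29b-3p and miR-29c-5p without WT replicate 3 and of miR-29c-3p without AD replicate 1.

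The labels do not say that the replicate numbers pair libraries. Correlations of same-numbered deviations ran from -0.421 to 0.435 in traditional-seq and from -0.519 to 0.437 in PANDORA-seq, which does not decide it. With the replicate block the miR-29a-3p value was -0.12 in traditional-seq and 0.33 in PANDORA-seq, and 0 members were called in either.

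Over all miRNA features, the 1 call of AD against WT in PANDORA-seq became 4 with the likelihood ratio test, 3 with DESeq2, and 0 with all reads as library size, the loose filter, the replicate block or 18 to 26 nt, and 0 to 2 when 1 library was left out. The 758 calls between protocols became 1706 with the loose filter and 1198 with 1 mismatch. The causes were not tested. Depth was low for several members, at 7 to 151 reads of miR-29b-3p a library in PANDORA-seq and 4 to 40 reads of miR-29b-5p in traditional-seq, and intervals between libraries cover more than counting error.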
